A study of Mus musculus with 28 samples.

Results

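In mouse mesodermal cultures at day 4, 360 of 4674 merged Suz12 regions were listed in both replicates treated with 4-hydroxytamoxifen (4-OHT), in which *Brg1* is deleted, and in neither control replicate. They were chosen from 4 lists of Suz12-enriched regions, 2 per condition, after regions that shared at least 1 bp had been merged. Suz12 calls therefore chose these 4-OHT-only regions, and their Suz12 values are given as a description without a test. The 360 regions are 7.70% of the merged regions, beside 48 (1.03%) that were listed in both control replicates and neither 4-OHT replicate. A further 2409 merged regions were listed in at least 1 replicate of each condition and are called kept regions, 1253 were listed in 1 4-OHT replicate and no other, and 604 in 1 control replicate and no other.

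Suz12 is a core subunit of Polycomb repressive complex 2 (PRC2), which methylates lysine 27 of histone H3, and the trimethylated form, H3K27me3, marks silent genes, among them many developmental regulators rich in CpG at their promoters. Acetylation of the same lysine, H3K27ac, marks active promoters and enhancers, and a single histone tail cannot carry both at this residue. Brg1 is the ATPase of BAF chromatin remodelling complexes, which are known both to counter and to assist Polycomb repression, depending on the locus.

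The cells were embryonic stem cells of the genotype *Brg1* f/f;*Actin-CreER*, grown as embryoid bodies for 2 days and then for 40 h with VEGF, Activin A and BMP4. From day 2 the control cultures received the vehicle THF, and the others 200 nM 4-OHT in THF, which activates the Cre recombinase fused to the oestrogen receptor, so that the labels give Brg1 as normal or deleted. Both conditions carry the floxed allele and the transgene. The study describes the loss of Brg1 protein as gradual during mesoderm induction, and *Brg1* RNA as strongly lower in the deleted cultures. Chromatin was immunoprecipitated for Suz12 (2 control and 2 4-OHT replicates), H3K27me3 (3 and 3), H3K27ac (2 and 2) and, without a 4-OHT arm, FLAG-tagged Brg1 (3 replicates). For FLAG the labels repeat the floxed line, whereas the study describes a separate Brg1-FLAG line. It also speaks of duplicates, so which of these lists it used is unknown, and all were used here. In these bulk cultures, fewer cells carrying a mark and less of the mark per cell cannot be told apart.

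The label mesoderm was checked against promoters. H3K27ac was listed in both control replicates within 2.5 kb of a transcriptional start site (TSS) for 7 of 8 mesoderm markers, namely *T*, *Mesp1*, *Mixl1*, *Eomes*, *Pdgfra*, *Tbx6* and *Msgn1*, and in neither for *Kdr*. The same held for 4 of 7 markers of pluripotency (*Pou5f1*, *Nanog*, *Sox2* and *Klf4*), 2 of 5 of endoderm, 2 of 6 of blood and endothelium, 1 of 4 annotated neural markers and 1 of 4 of cardiomyocytes. At these promoters H3K27me3 was listed in at least 2 of 3 control replicates for 4 of 8 mesoderm markers. It was so for 3 of 7 markers of pluripotency, 4 of 5 of endoderm and 3 of 4 annotated neural markers. The counts were 2 of 6 for blood and endothelium and 0 of 4 for cardiomyocytes. Mesoderm promoters were thus acetylated beside several of pluripotent cells. *T*, *Eomes* and *Pdgfra* also held H3K27me3, and *Kdr* held it without H3K27ac. The part of pluripotent cells in the results was not tested.

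Each replicate is a list of regions with a start and an end and no score, so read depth is unknown and the lists' sizes stand in its place. The control Suz12 lists held 2951 and 2913 regions with a total length of 3.68 and 4.07 Mb. With 4-OHT they held 3654 and 4016 regions with a total of 3.58 and 4.77 Mb. Both 4-OHT lists were thus longer than both control lists, whereas their covered lengths overlapped those of the controls. When every list was cut to its 2913 widest regions, 223 regions met the rule and 89 the reverse rule, and 219 of the 223 overlapped a region of the original 360. When regions of at least 500 bp were compared alone, the counts were 173 and 13, and 64 of the 173 overlapped an original one. For H3K27me3, replicate 1 stood apart in both conditions. It held 16959 control and 10394 4-OHT regions with a median width of 250 bp, against 8798 and 8977 control regions and 7872 and 6787 4-OHT regions with median widths of 350 to 425 bp in replicates 2 and 3. The H3K27ac lists held 37590 and 41062 control regions and 36000 and 32161 4-OHT regions. The share, the classes, the switches between conditions and the lengths of H3K27me3 are therefore given with and without replicate 1, whereas single regions and the other values are given with all 3 replicates. Of the FLAG lists, replicate 3 held 192 regions against 8021 and 8257.

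The median width of the 4-OHT-only regions was 487.5 bp (50.0 to 3375), against 1175 bp for kept regions and 450.0 bp for all merged regions. It was 350.0 bp for the reverse set and 100 bp for regions of 1 4-OHT list alone. Replicate 2 of the 4-OHT cultures covered 193.5 kb of them (94.1% of their bases) and replicate 1 covered 105.5 kb (51.4%). The call was wider in replicate 2 at 294 regions, wider in replicate 1 at 53 and equal at 13. At 43 regions at least 1 of the 4-OHT calls was a single step of the 25 bp grid on which all edges lie, the narrowest call possible. With 4-OHT replicate 1 alone standing for its condition 793 regions met the rule, and with replicate 2 alone 1380 did.

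Most lay far from any Suz12 region of the control cultures. The median distance to the nearest was 182788 bp, and 89 (24.7%) lay within 5 kb of a control region, 67 of them within 1 kb. Regions of the reverse set lay closer to the other condition, with a median distance of 400.0 bp and 44 of 48 within 5 kb of a 4-OHT region. Just inside the rule, 5 regions touched a control region without sharing a base, at *H2-Bl*, *Agpat9* and *Hrh1* and in intergenic sequence nearest to *Gata6* and *Commd3*. Of these, the region at the promoter of *Hrh1*, a histamine receptor, was called over 575 and 825 bp in 4-OHT replicates 1 and 2. Just outside it, 25 regions of both 4-OHT lists shared 25 bp with a control list. Among them were the promoters of *Cxcr4*, a chemokine receptor (0 and 25 bp in the control replicates, 325 and 825 bp with 4-OHT), and of *Wnt11*, a Wnt ligand (25 and 0 bp, then 525 and 975 bp). Both were picked after their values were seen, because they belong to the gene lists described further on.

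The 4-OHT-only regions were largely promoters. A TSS lay within 2.5 kb of 299 (83.1%, 95% exact binomial interval 78.8 to 86.8), against 75.1% of all merged regions and 77.9% of kept regions. Intervals here cover counting error only. Of the others, exons held 6, introns 15 and intergenic sequence 40. A TSS fell inside 138 of the 360 (38.3%), against 34.2% of all merged and 53.8% of kept regions. They were assigned to 338 different genes, of which 20 had more than 1 region, and *Wnt5a* and the neurotrophin gene *Ntf3* had 3 each. Of 22238 protein-coding genes, 320 (1.44%) had a 4-OHT-only region within 5 kb of a TSS, 1677 (7.54%) had a kept region, and 76 had both.

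Control cultures already carried H3K27me3 at about every second 4-OHT-only region, and H3K27ac at fewer. H3K27me3 was listed in at least 2 of 3 control replicates at 176 regions (48.9%, interval 43.6 to 54.2), against 72.3% of all merged regions and 92.4% of kept regions. H3K27ac was listed in both control replicates at 48 (13.3%, interval 10.0 to 17.3), against 5.24% of all merged regions and 4.19% of kept regions. The 4-OHT-only regions thus held H3K27me3 less often and H3K27ac more often than kept regions, in these lists. This comparison is not independent of the rule, as kept regions needed a control Suz12 call and the 360 had none. The 1253 regions of 1 4-OHT list, also without a control call, had H3K27me3 at 17.6%, 50.8% and 40.5% in control replicates 1 to 3. It was 17.2%, 60.6% and 52.8% for the 360 and 57.5%, 96.4% and 92.8% for kept regions. H3K27ac was at 9.90% and 8.22% of the 1253, 18.6% and 15.8% of the 360 and 6.68% and 5.11% of kept regions. Among regions 250 to 750 bp wide, a band chosen after seeing the data because kept regions are wider, H3K27me3 was listed at 45.9% of 196 4-OHT-only and 81.9% of 626 kept regions. H3K27ac was listed at 8.16% and 3.19% of the same regions. Regions are not replicates, so these shares describe the lists and were not tested. Requiring all 3 control replicates lowered the H3K27me3 share to 15.3%, since replicate 1 overlapped 62 of the 360 regions, replicate 2 218 and replicate 3 190. With replicates 2 and 3 both required and replicate 1 left aside, the share was 47.2%, against 92.2% of kept regions. It was 15.6% when replicates 1 and 3 were both required, 16.7% for replicates 1 and 2, and 27.8% when at least 50% of the region had to be covered.

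The control marks split the 360 regions into 155 with H3K27me3 alone (43.1%), 27 with H3K27ac alone (7.50%), 21 with both (5.83%) and 157 with neither (43.6%). The same split of the kept regions gave 2146 (89.1%), 20, 81 and 162. Without H3K27me3 replicate 1 the 360 regions split into 150, 28, 20 and 162. Regions with neither mark were the narrowest, with a median of 325.0 bp against 600.0 bp for either mark alone and 1175 bp for both. Promoters made up 84.5% of the H3K27me3 class, 74.1% of the H3K27ac class, 85.7% of the class with both and 82.8% of the class with neither. A mark in fewer replicates than the split asks for was common in the class with neither. In all, 52 of its 157 regions (33.1%) overlapped none of the 10 histone mark lists of either condition. The same held for 22.8% of kept regions with neither mark. Over all classes it was 14.4% of the 360, against 11.6% of all merged and 1.54% of kept regions.

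In the H3K27me3 class the 5 regions with the most Suz12 were at genes of the matrix, ion transport, the nuclear envelope and BMP signalling. A region of 1825 bp in *Hapln4*, which encodes a link protein of the extracellular matrix, overlapped an exon at chr8:72610776-72612600, 3.35 kb from the TSS (mm9, as for all positions here). Suz12 covered 1250 and 1775 bp of it in the 4-OHT replicates, and a control Suz12 region lay 1500 bp away. H3K27me3 covered 875, 1825 and 1825 bp in control replicates 1 to 3 and 150, 1825 and 1825 bp with 4-OHT. The region was thus fully covered in replicates 2 and 3 of both conditions.

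The promoter of *Slc8a3*, a sodium-calcium exchanger, held a region at chr12:82432951-82434600 with Suz12 over 1200 and 1650 bp. H3K27me3 covered 150, 1650 and 1650 bp there in control cultures and 0, 1650 and 1650 bp with 4-OHT, while the nearest control Suz12 region lay 304.9 kb away. *Nog* encodes the BMP antagonist noggin. Its region at chr11:89162651-89164300 contained the TSS, with Suz12 over 1175 and 1650 bp, and H3K27me3 extended over 0, 200 and 375 bp in control and 0, 450 and 700 bp in 4-OHT replicates. Replicates 2 and 3 were both wider with 4-OHT at this gene, and H3K27ac was listed over 225 bp in control replicate 1 and 25 bp in 4-OHT replicate 1.

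At *Col13a1*, a transmembrane collagen, Suz12 covered 1300 and 1500 bp at chr10:61440501-61442150. H3K27me3 there was 25, 825 and 1225 bp in control and 0, 1100 and 1300 bp in 4-OHT replicates. *Syne2* encodes a nesprin of the nuclear envelope. Suz12 covered 975 and 1525 bp of its promoter at chr12:76919076-76920600, and H3K27me3 50, 1025 and 875 bp in control and 0, 1025 and 775 bp in 4-OHT replicates. None of the H3K27ac lists covered the regions of *Hapln4*, *Slc8a3*, *Col13a1* and *Syne2*.

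The 27 regions with control H3K27ac alone were led by 2 genes of the matrix, a potassium channel subunit gene and 2 signalling genes. *Fbn2*, which encodes a fibrillin, held a promoter region at chr18:58368776-58370075 with Suz12 over 875 and 1300 bp. H3K27ac was listed over 100 and 175 bp of it in the control replicates and 0 bp in both 4-OHT replicates. H3K27me3 extended over 0, 0 and 200 bp in control and 0, 50 and 275 bp in 4-OHT replicates. This promoter was therefore listed for H3K27ac in control cultures and for Suz12 with 4-OHT, and in neither case in the other condition.

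*Mmp15*, a membrane-type matrix metalloproteinase, kept its acetylation. Suz12 covered 800 and 1100 bp at chr8:97876201-97877300, H3K27ac 500 and 400 bp in control and 800 and 500 bp in 4-OHT replicates, and no H3K27me3 list reached the region. At *Kcns3*, a modulatory subunit of voltage-gated potassium channels, Suz12 covered 750 and 1075 bp at chr12:11156351-11157425. H3K27ac there was 525 and 525 bp in control and 375 and 300 bp in 4-OHT replicates. H3K27me3 at *Kcns3* was 0, 0 and 125 bp in control and 0, 200 and 50 bp in 4-OHT replicates. Suz12 and H3K27ac were thus listed over the same promoter under 4-OHT at both genes.

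*Dll1* encodes a Notch ligand of the presomitic mesoderm. Its promoter region at chr17:15511701-15512900 had Suz12 over 875 and 900 bp. H3K27ac was listed over 450 and 550 bp in control and 300 and 300 bp in 4-OHT replicates, and H3K27me3 0, 0 and 125 bp and then 0, 50 and 25 bp. Both 4-OHT replicates were below both control replicates in H3K27ac here and at *Kcns3*, which was not tested.

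*Wnt5a*, a Wnt ligand active in the primitive streak, held 3 of the regions within 5 kb. The first, at chr14:29318876-29319800, had Suz12 over 625 and 925 bp and was covered by H3K27ac along all 925 bp in each of the 4 H3K27ac replicates. H3K27me3 extended over 0, 0 and 100 bp in control and 0, 50 and 625 bp in 4-OHT replicates. The widest, at chr14:29321776-29323125, carried both marks in control cultures, with Suz12 over 100 and 1350 bp. H3K27ac was 50 and 525 bp in control and 0 bp in both 4-OHT replicates, while H3K27me3 was 225, 525 and 800 bp in control and 0, 875 and 1275 bp in 4-OHT replicates. At this single gene, acetylation was listed in every replicate in the first region and in control replicates alone in the other. The nearest control Suz12 region lay 1215 and 1212 kb from them. The remaining region, at chr14:29320776-29320925, had neither mark in control lists, H3K27ac over 25 bp in 4-OHT replicate 2 and Suz12 over 125 and 150 bp, and is named after its values were seen.

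Regions with both control marks were few and wide. The widest of all 360, at chr8:105307276-105310650, spanned the promoter of *Cdh11*, a cadherin of mesenchymal cells. Suz12 covered 1000 and 3375 bp of it, and H3K27ac 2175 and 2875 bp in control and 50 and 575 bp in 4-OHT replicates. H3K27me3 extended over 375, 1025 and 550 bp in control and 275, 1950 and 2850 bp in 4-OHT replicates. *Cdh11* thus had less listed H3K27ac with 4-OHT in both replicates and more listed H3K27me3 in replicates 2 and 3, with replicate 1 the other way.

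The genes *Col4a1* and *Col4a2* encode chains of basement membrane collagen and share a promoter. Their region at chr8:11311526-11314000 had Suz12 over 1800 and 2475 bp, and H3K27me3 over 0, 525 and 1200 bp in control and 25, 2000 and 600 bp in 4-OHT replicates. H3K27ac was 150 and 75 bp in control and 625 and 0 bp in 4-OHT replicates, so that replicates of a condition differed more than the conditions. *Zfp703*, a zinc finger corepressor, had Suz12 over 1700 and 2250 bp at chr8:28088326-28090575. H3K27me3 was 0, 1800 and 1900 bp in control and 0, 1450 and 0 bp in 4-OHT replicates, and H3K27ac 1075 and 775 bp in control and 1125 and 1150 bp in 4-OHT replicates.

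The neighbouring metallothionein genes *Mt2* and *Mt1*, whose products bind metal ions, completed the leading 5. At *Mt2* (chr8:96696001-96697350) Suz12 covered 1250 and 1350 bp, and at *Mt1* (chr8:96702551-96704075) 1075 and 1525 bp. Both were acetylated along nearly their whole length in all 4 H3K27ac replicates, with 1350, 1325, 1350 and 1350 bp at *Mt2* and 1525 bp throughout at *Mt1*. H3K27me3 at *Mt1* was 725, 1525 and 1025 bp in control and 100, 1525 and 0 bp in 4-OHT replicates. At *Mt2* it was 75, 1350 and 375 bp, then 0, 1350 and 0 bp. All 5 leading regions with both marks lay on chromosome 8.

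Chromosome 8 held 40 of the 360 regions, which are 15.9% of its 252 merged regions, the highest share of any chromosome, followed by 13.0% on chromosome 12 and 12.4% on chromosome 16, against 7.70% overall and 4.08% on chromosome 14, the lowest. It also held 8 of the 21 regions with both marks. The share of each Suz12 list on chromosome 8 was 4.41% and 4.05% in control and 5.64% and 5.58% in 4-OHT replicates. For H3K27me3 it was 7.21%, 5.69% and 5.97% in control and 6.07%, 5.32% and 5.08% in 4-OHT replicates, and for H3K27ac 6.74% and 6.43%, then 6.99% and 7.06%. The Suz12 shares did not overlap between conditions, those of H3K27ac did not either, and those of H3K27me3 did. Such a lack of overlap was common, found for Suz12 on 9 of 20 chromosomes, for H3K27ac on 17 and for H3K27me3 on 4, so that it alone does not set chromosome 8 apart. In size, the mean Suz12 share of chromosome 8 with 4-OHT was 1.33 times that of control, the highest ratio of the 20. It was followed by 1.20 on chromosome 16 and 1.19 on chromosome 12. The same Suz12 lists chose the 360 regions, so their shares and ratios partly restate the excess on chromosome 8 and are no separate evidence of it. For H3K27ac the ratio of chromosome 8 was 1.07, again the highest. For H3K27me3 it was 0.873, the lowest of the autosomes, with 0.698 on the X chromosome. The high share of 4-OHT-only regions was noticed after seeing the data, and its cause was not tested. The lists give no copy number for chromosome 8 in either condition, which limits what the regions on it, the leading ones with both marks included, can show. Without chromosome 8, 320 regions met the rule and 47 the reverse rule, with H3K27me3 at 45.9% and H3K27ac at 11.2% of the 320.

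Regions with neither mark in control cultures were led by an intergenic site and the promoters of an enzyme, a channel, a signalling gene and a storkhead box gene. The widest, at chr19:36422151-36424000, lay 29.6 kb upstream of the nearest protein-coding TSS, that of *Pcgf5*, a subunit of variant Polycomb repressive complex 1. Suz12 covered 725 and 1850 bp, and H3K27me3 0, 50 and 0 bp in control and 0, 975 and 525 bp in 4-OHT replicates. H3K27me3 was thus wider with 4-OHT in replicates 2 and 3 and absent from replicate 1 in both conditions.

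*Hs3st3a1*, a heparan sulfate sulfotransferase, showed a similar picture at chr11:64249101-64250150. Suz12 covered 825 and 1050 bp, and H3K27me3 0 bp in all 3 control replicates and 0, 675 and 650 bp in 4-OHT replicates. *Hcn4* encodes a pacemaker channel of the heart. At its promoter, chr9:58671051-58672025, Suz12 covered 700 and 975 bp and H3K27me3 0, 625 and 0 bp in control and 0, 650 and 0 bp in 4-OHT replicates, so that replicate 2 alone listed it in each condition.

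The promoter of *Rgs7bp*, which encodes a binding partner of regulators of G protein signalling, had Suz12 over 800 and 775 bp at chr13:105844001-105844875. No H3K27me3 list of the control cultures covered it, and 4-OHT replicate 2 did over 100 bp. *Stox2*, a gene of the storkhead box family, had Suz12 over 150 and 1375 bp at chr8:48373301-48374800, with H3K27ac over 375 and 0 bp in control and 75 and 200 bp in 4-OHT replicates and no H3K27me3. The 157 regions with neither mark therefore ranged from sites with H3K27me3 in 4-OHT lists to sites with none in any list.

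Genes of mesoderm and signalling were next taken by family, with every annotated gene of a family as the base and 1.44% of protein-coding genes as the background for a 4-OHT-only region within 5 kb. Homeobox genes of families chosen by symbol, among them *Hox*, *Pax*, *Lhx*, *Nkx* and *Pou*, mostly had a Suz12 region in both conditions. Of 140 in these families, 126 (90.0%) had a kept region and 4 (2.86%) a 4-OHT-only region, and all of these 4 had a kept region as well. Their 4-OHT-only regions lay 150 to 3300 bp from a control Suz12 region. The families searched leave out other homeobox genes, among them *Mixl1* and *Phox2a*, which had 4-OHT-only regions within 5 kb and are named after their values were seen.

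*Pou3f1*, a POU factor of neural and epiblast cells, had Suz12 over 575 and 600 bp at chr4:124333826-124334425, with H3K27me3 over 0, 550 and 600 bp in control and 0, 350 and 125 bp in 4-OHT replicates. The region near *Nkx6-3* (chr8:24260226-24260825) had Suz12 over 500 and 550 bp, and that near *Lhx1*, a LIM factor of early mesoderm (chr11:84341676-84342175), 500 and 300 bp. H3K27me3 near *Nkx6-3* was 75, 550 and 475 bp in control and 25, 475 and 400 bp in 4-OHT replicates, and near *Lhx1* 200, 250 and 500 bp and then 0, 375 and 500 bp. *Isl1*, a LIM factor of cardiac progenitors, had a region 3.96 kb upstream at chr13:117103851-117104125, with Suz12 over 225 and 275 bp and neither mark in any list. At these 4 genes the regions thus lay beside Suz12 regions shared by both conditions, which was not so at *Mixl1*, 213.1 kb from the nearest control Suz12 region. A region at *Phox2a*, also outside these families, lay 125 bp from a control Suz12 region.

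Of 169 other developmental transcription factor genes, 8 (4.73%) had a 4-OHT-only region and 87 (51.5%) a kept one, and 6 had both. *Id2*, an inhibitor of basic helix-loop-helix factors, was without a kept region. Its 1300 bp region lay 3.84 kb upstream at chr12:25784801-25786100, with Suz12 over 1025 and 1300 bp. H3K27me3 was 500, 1275 and 50 bp in control and 0 bp in all 3 4-OHT replicates, while H3K27ac was 1150 and 1150 bp in control and 1250 and 1175 bp in 4-OHT replicates. This acetylated site was therefore listed for Suz12 under 4-OHT alone and for H3K27me3 in control cultures alone.

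*Hand1*, a factor of lateral and extraembryonic mesoderm, had Suz12 over 125 and 700 bp at chr11:57646826-57647525, with H3K27me3 over 50, 700 and 700 bp in control and 0, 700 and 700 bp in 4-OHT replicates. *Hes7*, the oscillating repressor of the segmentation clock, had Suz12 over 400 and 200 bp at chr11:68934751-68935150 and no kept region. H3K27me3 covered all 400 bp of it in replicates 2 and 3 of both conditions. The promoter of the pluripotency factor *Sox2* had Suz12 over 25 and 450 bp at chr3:34547726-34548175, with H3K27me3 over 0, 450 and 0 bp in control and 0 bp in all 4-OHT replicates. H3K27ac there was 450 and 0 bp in control and 450 and 450 bp in 4-OHT replicates. The other 4 genes were *Foxc1*, *Sox9*, *Foxe3* and *Hes3*, with regions of 75 to 250 bp, named after their values were seen.

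Of 43 Wnt ligands, antagonists and receptors, 3 (6.98%) had a 4-OHT-only region and 20 (46.5%) a kept one. None of the 3 had both, beside 76 of 320 over all protein-coding genes. Beside *Wnt5a* these were *Dkk2*, a secreted Wnt antagonist, and *Fzd1*, a Wnt receptor. At *Dkk2* (chr3:131748201-131749000) Suz12 covered 150 and 800 bp, and H3K27me3 0, 500 and 125 bp in control and 0, 525 and 200 bp in 4-OHT replicates. At *Fzd1* (chr5:4756426-4757100) Suz12 covered 175 and 675 bp, and H3K27me3 0, 0 and 25 bp in control and 0, 300 and 200 bp in 4-OHT replicates. The nearest control Suz12 region of *Fzd1*, at 10683 kb, was the most distant of all 360.

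Genes of BMP, TGF-beta and Nodal signalling had a 4-OHT-only region in 3 of 43 cases (6.98%) and a kept one in 13 (30.2%). *Nog* was the widest. The promoter of *Tgfb2*, a TGF-beta ligand, had Suz12 over 350 and 625 bp at chr1:188528976-188529600, 175 bp from a control Suz12 region, with H3K27me3 over 0, 0 and 100 bp in control and 0 bp in all 4-OHT replicates. *Smad9*, a transducer of BMP signals, had Suz12 over 175 and 25 bp at chr3:54559301-54559475 and no histone mark in any list.

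Among 40 FGF and Notch genes, 5 (12.5%) had a 4-OHT-only region and 14 (35.0%) a kept one. *Fgf2*, a growth factor gene, had Suz12 over 650 and 900 bp at chr3:37247176-37248075. H3K27me3 there was 0, 900 and 825 bp in control and 0, 900 and 900 bp in 4-OHT replicates, so that replicates 2 and 3 listed the mark over most of the region in both conditions and replicate 1 in neither. *Lfng*, which modifies Notch receptors, had Suz12 over 125 and 375 bp at chr5:141082226-141082600, with H3K27me3 over 0, 0 and 375 bp in control and 0, 375 and 375 bp in 4-OHT replicates. *Fgfr4*, an FGF receptor, had Suz12 over 100 and 350 bp at chr13:55254051-55254400, with H3K27me3 over 0, 350 and 125 bp in control and 0, 300 and 0 bp in 4-OHT replicates. With *Dll1* and *Fgf13*, a homologue on the X chromosome named after its values were seen, these make up the 5 genes.

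Hedgehog and retinoic acid genes had a 4-OHT-only region in 2 of 16 cases (12.5%) and a kept one in 10 (62.5%), and both of the 2 had a kept one. In an intron of *Ptch1*, the hedgehog receptor, Suz12 covered 175 and 450 bp at chr13:63670201-63670725, with H3K27me3 over 25, 525 and 525 bp in control and 0, 525 and 525 bp in 4-OHT replicates. *Cyp26c1*, which degrades retinoic acid, had Suz12 over 25 and 175 bp at chr19:37762051-37762225 and H3K27me3 along all 175 bp in replicates 2 and 3 of both conditions.

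Guidance and adhesion genes had a 4-OHT-only region in 7 of 121 cases (5.79%), and 1 of the 7 also had a kept one, of 26 (21.5%) in the family. After *Cdh11* came *Robo3*, a receptor of axon guidance, with Suz12 over 575 and 825 bp at chr9:37240076-37240900 and H3K27me3 over 0, 775 and 825 bp in control and 0, 775 and 750 bp in 4-OHT replicates. *Cdh3*, which encodes P-cadherin, had Suz12 over 375 and 825 bp at chr8:109034901-109035800. H3K27ac there was 400 and 0 bp in control and 700 and 450 bp in 4-OHT replicates, and H3K27me3 0, 900 and 875 bp and then 0, 675 and 550 bp. In *Cdh3*, unlike *Cdh11*, H3K27ac was wider and H3K27me3 narrower with 4-OHT in the replicates that listed them. *Slit1*, a secreted guidance cue, had Suz12 over 75 and 575 bp at chr19:41817626-41818200, with H3K27me3 over 0, 425 and 375 bp in control and 0, 300 and 300 bp in 4-OHT replicates. A further 5 regions lay near genes of this family.

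Families of ion channels and transmitter receptors were chosen by symbol. They leave out other such genes with a 4-OHT-only region, among them *Hcn4*, *Fam38b*, *Hrh1*, *Accn1*, *P2rx5* and *Adora1*. Of these, *Accn1*, *P2rx5* and *Adora1* are named after their values were seen. In the families, 11 of 215 genes (5.12%) had a 4-OHT-only region and 76 (35.3%) a kept one, with 2 genes in both groups. *Adrb3*, an adrenergic receptor, had Suz12 over 650 and 1125 bp at chr8:28337701-28338825, with H3K27me3 over 0, 1125 and 1125 bp in control and 0, 900 and 1075 bp in 4-OHT replicates. The potassium channel gene *Kcnc2* had Suz12 over 650 and 1100 bp at chr10:111707126-111708225, with H3K27me3 over 0, 175 and 250 bp in control and 0, 925 and 150 bp in 4-OHT replicates. *Kcnf1*, another channel subunit gene, had Suz12 over 725 and 825 bp at chr12:17182576-17183475, with H3K27me3 over 0, 900 and 725 bp in control and 0, 900 and 875 bp in 4-OHT replicates. With *Kcns3*, these leave 7 regions of the list. Of the 11 genes, 8 had a 4-OHT-only region with control H3K27me3, beside 170 of the 320 protein-coding genes with a 4-OHT-only region.

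Genes of PRC2 (0 of 11) and of BAF (0 of 23) had no 4-OHT-only region. With 1.44% of all protein-coding genes as the background, 0 in lists this short says little. A kept region was found at 9.09% and 8.70% of them, beside 7.54% of all protein-coding genes. Genes named in the study's text as upregulated or downregulated without *Brg1* were listed apart, and as they come from related cultures they are no independent evidence. Of 13 upregulated genes, 0 had a 4-OHT-only region, again in a short list, and 9 (69.2%) had a kept one. Of 6 downregulated genes, 4 had a kept region and 1, *Pdgfra*, a receptor of cardiogenic mesoderm, a 4-OHT-only region as well. The region of *Pdgfra* lay 0.441 kb upstream at chr5:75547451-75547875, with Suz12 over 25 and 425 bp. H3K27me3 was 50, 0 and 400 bp in control and 0 bp in all 4-OHT replicates, and H3K27ac 425 and 425 bp in control and 350 and 425 bp in 4-OHT replicates. Its promoter was thus acetylated in both conditions, and the single grid step in 4-OHT replicate 1 is what placed it among the 360.

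The mesoderm markers *T* and *Mixl1* also had a 4-OHT-only region at the promoter and were picked after their values were seen. *T* encodes brachyury, and its region at chr17:8626176-8626425 had Suz12 over 25 and 250 bp and H3K27ac along all 250 bp in each of the 4 replicates. *Mixl1*, a homeobox gene of the primitive streak, had Suz12 over 50 and 125 bp at chr1:182626876-182627000 and H3K27ac along all 125 bp in each replicate. At both, H3K27ac was listed throughout in control and 4-OHT cultures. Near the promoter of *T*, H3K27me3 was listed in 3 control and 2 4-OHT replicates. Near that of *Mixl1* it was listed in 0 control and 2 4-OHT replicates. These H3K27me3 counts are for the promoters and not for the regions themselves.

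Brg1, read by FLAG, was listed in at least 2 of 3 replicates at 7 (1.94%, interval 0.785 to 3.97), against 0.963% of all merged regions and 1.33% of kept regions, and in any of the 3 at 39 (10.8%), against 5.73% and 7.43%. FLAG replicates 1 and 2 each overlapped 23 regions and replicate 3 overlapped 0, so that without replicate 1 or without replicate 2 the count fell to 0. The 7 spread over all 4 classes. *Zfpm1*, a cofactor of GATA factors, carried both marks, with FLAG over 125 and 225 bp in replicates 1 and 2 and Suz12 over 500 and 1175 bp at chr8:124806401-124807575. *1300014I06Rik* was acetylated, with FLAG over 50 and 25 bp and Suz12 over 400 and 950 bp at chr13:34743751-34744700.

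An intron of *Lmx1a*, a LIM homeobox gene, had FLAG over 350 and 75 bp and Suz12 over 450 and 700 bp at chr1:169732726-169733425. H3K27me3 there was 0 bp in all 3 control replicates and 0, 475 and 500 bp in 4-OHT replicates. The promoter of *Egr3*, an early growth response factor, had FLAG over 225 and 25 bp at chr14:70475326-70476075, with H3K27me3 over 0, 750 and 750 bp in control and 0, 600 and 525 bp in 4-OHT replicates. A further site, chr2:172553676-172554300, lay 176.1 kb from *Tcfap2c*, an AP-2 factor, with FLAG over 50 and 150 bp. The other 2 were the promoter of *Pdgfra* and a site nearest to *Fam178a*, the latter named after its values were seen. Of the 7, *Zfpm1*, *Egr3* and the site near *Tcfap2c* had H3K27me3 in lists of both conditions, *Lmx1a* and *1300014I06Rik* in 4-OHT lists alone, *Pdgfra* in control lists alone and the site near *Fam178a* in none.

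H3K27ac was listed in at least 1 of the 4 lists at 93 of the 360 regions (25.8%), against 12.7% of all merged and 11.5% of kept regions. In all 4 lists it was found at 35, and in none at 267. It was listed in both 4-OHT replicates and neither control replicate at 3 (0.833%, against 0.877% of all merged regions), which is 1.06% of the 284 regions without control H3K27ac, against 0.966% of such merged and 1.26% of such kept regions. The reverse held at 8 (2.22%, against 0.556%), out of 48 with H3K27ac in both control replicates (16.7%, against 10.6% and 5.94%). The 3 were the promoters of *4933428G20Rik* (0 and 0 bp in control, 525 and 100 bp in 4-OHT replicates) and *Tshz1*, a zinc finger gene (0 and 0 bp, then 25 and 25 bp), and a site 61.9 kb from *Mrps33* (0 and 0 bp, then 100 and 325 bp).

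Of the 8 that were listed for H3K27ac in control cultures alone, the site with the most was intergenic, 123.1 kb from *4931429L15Rik* at chr9:46251126-46251975, with H3K27ac over 625 and 850 bp in control and 0 bp in both 4-OHT replicates. H3K27me3 there was 0 bp in all control replicates and 0, 325 and 400 bp in 4-OHT replicates, and Suz12 850 and 500 bp. This site was thus listed for acetylation in control cultures and for Suz12 and H3K27me3 with 4-OHT, and for none of them the other way. A site 4.60 kb from *Lmo1*, a LIM-only factor (chr7:116318426-116319075), had H3K27ac over 275 and 650 bp in control and 0 bp in both 4-OHT replicates, and H3K27me3 over 0, 250 and 275 bp and then 75, 650 and 525 bp. All 3 H3K27me3 replicates were wider with 4-OHT here. The promoters of *Grrp1* (25 and 425 bp in control) and of *Fam38b*, an ion channel gene (175 and 175 bp), likewise had 0 bp of H3K27ac in both 4-OHT replicates, as did the widest *Wnt5a* region.

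H3K27me3 was listed in at least 2 of 3 4-OHT replicates and no control replicate at 14 regions (3.89%, against 0.770% of all merged regions). As only regions without control H3K27me3 could do so, these are 11.6% of the 121 regions that no control replicate listed, against 4.11% of 875 such merged regions and 5.63% of 71 such kept regions. The reverse held at 9 (2.5%, against 2.44%), out of 176 with H3K27me3 in at least 2 control replicates (5.11%, against 3.37% of 3379 merged and 2.11% of 2227 kept regions). With replicates 2 and 3 alone, both required, the counts were 13 of 122 (10.7%, against 3.83% and 5.48%) and 9 of 170 (5.29%, against 3.44% and 2.21%). These shares were not tested. Beside *Lmx1a*, *Hs3st3a1* and the site near *4931429L15Rik*, the 14 included the promoters of *Ngfr*, a neurotrophin receptor, *Vash2*, *Lama1*, a laminin chain, *Lyn*, a kinase, and *Esam*, an endothelial adhesion molecule, and a site nearest to *Twist1*, a mesodermal factor. Those beyond the rule for named genes were picked after their values were seen. At *Ngfr* H3K27me3 was 0, 0 and 0 bp in control and 0, 150 and 400 bp in 4-OHT replicates, and at the site nearest to *Twist1* 0, 0 and 0 bp and then 150, 150 and 0 bp. Of the 14, 12 belonged to the class with neither control mark and 2 to the class with H3K27ac alone. The split by control lists fixes that the 14 fall outside the H3K27me3 class.

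Among the 9 with H3K27me3 in control cultures alone were *Id2* and *Pdgfra*, the promoter of *Espn*, an actin-bundling protein, and a region inside *Mid1* on the X chromosome. In the last, at chrX:166434776-166435925, Suz12 covered 1075 and 1150 bp, and H3K27me3 0, 1100 and 1100 bp in control and 0 bp in all 4-OHT replicates. H3K27ac there was 1150 and 0 bp in control and 1150 and 1150 bp in 4-OHT replicates. At *Espn* H3K27me3 was 0, 350 and 125 bp in control and 0 bp in all 4-OHT replicates, with H3K27ac over 1175 and 1000 bp and then 1175 and 1175 bp. Of the 360 regions, 65 overlapped more H3K27me3 lists with 4-OHT, 87 more control lists and 208 equal numbers, which is 18.1% and 24.2% with more 4-OHT or more control lists, against 2.12% and 20.5% of kept regions. Without replicate 1 of either condition the counts were 64, 65 and 231, or 17.8% and 18.1%, against 1.58% and 11.3%. As 57.2% of kept regions were in all 3 control lists already, against 15.3% of the 360, most kept regions could not gain a list, and the shares are no like-for-like comparison.

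Over replicates, the H3K27me3 length within the 360 regions did not differ between conditions beyond its spread. It was 11.0, 93.9 and 75.1 kb in control replicates 1 to 3 (mean 60.0 ± 43.5 kb, SD, n = 3) and 4.40, 107.4 and 66.7 kb in 4-OHT replicates (59.5 ± 51.9 kb, n = 3). Replicate 1 was low in both conditions, and the values overlapped. The difference, 4-OHT minus control, was -0.508 kb (two-sided exact permutation p = 1.00, where 3 against 3 replicates allow no p under 0.100). Without the replicate 1 lists of both conditions, an alternative chosen after seeing the data, it was 2.52 kb. Without those of replicate 2 or of replicate 3 it was -7.5 and 3.45 kb, alternatives added later, so that its sign changed with the pair left out. Without 1 list at a time, which leaves the other list of its number unmatched, it ranged from -25.0 to 27 kb. In windows of 5 kb around the regions the lengths were 385.3, 558.2 and 469.7 kb in control and 247.1, 498.1 and 348.6 kb in 4-OHT replicates, a difference of -106.4 kb (exact p = 0.300), and of -90.6 kb without the replicate 1 lists. Each 4-OHT replicate was lower than the control replicate of its number in these wider windows, which the unpaired test does not use. The same held in windows around kept regions, with 3893, 7013 and 6485 kb in control and 2606, 6193 and 5368 kb in 4-OHT replicates. Relative to them the difference was -0.07 on the log2 scale (exact p = 0.800), and -0.07 without the replicate 1 lists. The fall was thus seen around kept regions too, and whether its size differed between the sets is not settled. A p that misses the threshold does not show that the conditions were alike.

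Per base, H3K27me3 covered 5.34%, 45.7% and 36.5% of the 4-OHT-only regions in control and 2.14%, 52.2% and 32.4% in 4-OHT replicates, against 35.0%, 91.6% and 87.3%, then 26.3%, 87.7% and 79.6% of kept regions. To compare the conditions, the length in the 360 was divided by that in kept regions of the same replicate. The level of this ratio largely follows from the number and width of the regions, so only its change between conditions is read. On the log2 scale it was -7.26, -5.55 and -5.81 in control and -8.17, -5.30 and -5.84 in 4-OHT replicates. The lengths in kept regions were 1685, 4409 and 4201 kb in control and 1264, 4220 and 3831 kb in 4-OHT replicates. The condition difference was -0.23 on the log2 scale (exact p = 0.800, n = 3 and 3), and 0.11, -0.47 and -0.32 without the lists of replicate 1, 2 or 3. It ranged from -0.80 to 0.64 when 1 list was left out, so that no direction can be given.

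H3K27ac within the 360 regions was 27.9 and 25.8 kb in control (26.8 ± 1.5 kb, SD, n = 2) and 29.2 and 24.3 kb in 4-OHT replicates (26.7 ± 3.46 kb, n = 2). The difference of -0.0875 kb was smaller than the spread (two-sided exact permutation p = 1.00, where 2 against 2 replicates allow no p under 0.333). By class, H3K27me3 in the regions with neither control mark was 0, 7.45 and 2.05 kb in control and 0, 15.2 and 6.65 kb in 4-OHT replicates. In the H3K27me3 class it was 8.43, 72.7 and 60.7 kb, then 3.55, 75.5 and 48.9 kb. H3K27ac in the class with both marks was 12.9 and 14.7 kb in control and 10.6 and 10.3 kb in 4-OHT replicates. The control lists set the classes, so these differences were partly fixed by that choice and were not tested.

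In sequence, the 4-OHT-only regions were rich in G, C and CpG. Their median GC content was 66.7%, against 61.7% in kept regions, but among regions 250 to 750 bp wide it was 67.5% and 66.8%. By class it was 63.8% with H3K27me3, 66.7% with H3K27ac, 61.5% with both and 70.7% with neither. CpG-rich central windows of 300 bp, meaning GC over 50% and an observed to expected CpG ratio over 0.6, made up 82.2% of them, against 68.7% of kept, 60.9% of all merged and 16.7% of the reverse regions, and 85.7% against 77.0% of kept regions in that band of widths. The share was 90.4% in the class with neither mark, 85.2% with H3K27ac, 75.5% with H3K27me3 and 66.7% with both. Kept regions with neither mark were alike, with 91.4% CpG-rich windows and a median GC of 69.7%, so this trait was not particular to the 4-OHT-only regions.

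In the same windows, 6 short motifs were searched on both strands. CGCGCG was found in 33.6% of the 4-OHT-only regions, 23.1% of all merged regions and 16.2% of windows at protein-coding gene starts, and in 41.4% of the class with neither mark and 39.5% of kept regions of that class. Kept regions as a whole held it in 26.7%. Among regions 250 to 750 bp wide it was in 40.3% of 4-OHT-only and 32.4% of kept regions. GAGAGA was found in 16.4%, 21.6% and 23.8% of the first 3 sets, and CACCTG in 23.6%, 24.6% and 21.1%. AGATAA was found in 4.72%, 6.23% and 8.47%, TGTTTAC in 2.22%, 1.52% and 2.54%, and AGGTGTGA in 0.278%, 0.920% and 0.952%. CGCGCG is itself made of CpG, and a match is a description of the letters and not a binding site.

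Sequences of 200 bp from the centre of a leading region of each class are printed to show how widely CpG content varied between single regions. They do not stand for their classes, as the *Hapln4* window lies far below its class median of GC. The genome is mm9, the strand is plus, all run 5′ to 3′, and capitals mark CpG. Each is the first region of its class, by Suz12 length, whose window overlaps no annotated UTR, with *Fbn2* passed over. They are *Hapln4* for H3K27me3 (chr8:72611588-72611787, 4 CpG, GC 48.0%), *Kcns3* for H3K27ac (chr12:11156788-11156987, 11 CpG, GC 60.5%), *Mt1* for both marks (chr8:96703213-96703412, 12 CpG, GC 52.0%) and the site near *Pcgf5* for neither (chr19:36422976-36423175, 28 CpG, GC 70.0%). CGCGCG occurred 3 times, overlapping, near *Pcgf5*, 1 time in *Kcns3* and 0 times in the others.
Hapln4: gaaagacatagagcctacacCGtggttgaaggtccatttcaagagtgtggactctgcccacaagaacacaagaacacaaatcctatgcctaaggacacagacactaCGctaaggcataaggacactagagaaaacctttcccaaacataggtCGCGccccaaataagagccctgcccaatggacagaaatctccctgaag
Kcns3: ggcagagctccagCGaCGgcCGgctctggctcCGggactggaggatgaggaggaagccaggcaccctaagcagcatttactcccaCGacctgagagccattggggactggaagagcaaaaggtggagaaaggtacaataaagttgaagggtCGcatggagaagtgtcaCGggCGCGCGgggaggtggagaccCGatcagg
Mt1: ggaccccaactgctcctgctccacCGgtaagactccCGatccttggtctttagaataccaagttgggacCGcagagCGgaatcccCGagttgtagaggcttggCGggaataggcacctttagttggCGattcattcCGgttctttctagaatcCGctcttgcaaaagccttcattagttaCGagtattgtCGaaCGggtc
Pcgf5: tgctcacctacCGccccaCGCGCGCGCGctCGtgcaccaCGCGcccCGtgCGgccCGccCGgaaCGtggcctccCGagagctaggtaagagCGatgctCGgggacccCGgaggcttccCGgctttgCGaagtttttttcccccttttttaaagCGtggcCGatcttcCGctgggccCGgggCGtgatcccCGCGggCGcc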

How the data were processed

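ChIP-seq of Suz12, H3K27me3, H3K27ac and FLAG had been deposited as 17 lists of enriched regions, and 11 of the 28 samples, the inputs, have no list and were not used here. Per the labels, the authors aligned reads with Bowtie to mm9, and each list was called in its own replicate over input with a Poissonian model. The unit of the deposited lists is other than a signal: chromosome, start and end of each region in bp on a 25 bp grid, with no score or count, so depth is unknown.

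Regions of the 4 Suz12 lists sharing 1 bp were merged. A region overlapped a mark when it shared 1 bp with a listed region, H3K27me3 being required in at least 2 of 3 and H3K27ac in both control replicates. Covered length is the number of bases of a region inside a list. Genes came from GENCODE M1 on NCBIM37 (the mm9 build), by a TSS within 2.5 kb, else the gene around the region, else the nearest protein-coding TSS, and sequences, from outside chromosome 18, from the genome of that build. Named were the 5 regions of each class with the largest mean Suz12 length in the 4-OHT replicates, up to 4 near genes of each list, up to 5 with FLAG in at least 2 of 3 replicates or with H3K27ac in a single condition, and those nearest the rule's threshold. Members and lists were chosen with earlier results of these data known. Lengths were compared by two-sided exact permutation tests over replicates, and shares carry exact binomial intervals at 95%. Alternatives were other overlaps, distances, widths and marks, lists of equal numbers, a replicate block and replicates left out.

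As a check of pairing, deviations of same-numbered replicates from their condition means were correlated over the 4674 merged regions. For H3K27me3, r was 0.98, 0.95 and 0.92 in pairs 1, 2 and 3. The main tests were unpaired, and the replicate number was used as a block in an alternative alone. Across numbers, r was also 0.92 for control 3 with 4-OHT 2 and 0.86 for control 2 with 4-OHT 3. Replicate 1 is thus what stands apart, and the lists do not settle the pairs of replicates 2 and 3. The calculations were tested on simulated data. Python 3.11.15, numpy 2.4.6 and scipy 1.17.1 were used.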

Additional observations from a re-analysis of the deposited data

How the results depend on the processing

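Of 360 4-OHT-only and 48 reverse regions, the counts were 173 and 13 for regions of at least 500 bp and 223 and 89 for equal numbers per list. The reverse count was 24 for regions of at least 250 bp, 12 when regions under 1 kb apart were joined, and 13 or 4 when no region of the other condition was allowed within 1 kb or 5 kb. Leaving out 1 Suz12 replicate gave 494 to 1380 and 56 to 429. The 4-OHT-only count stayed above the reverse count under each of these settings. With a 4-OHT replicate left out, the 4-OHT-only rule needs 1 list and the reverse rule still both, which favours the 4-OHT-only count by design. Without a control replicate the reverse rule is the easier one, and the counts were 494 and 429 without replicate 1, and 538 and 363 without replicate 2.

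The share with H3K27me3 (48.9%) was 66.4% in at least 1 control list, 15.3% in all 3, 27.8% with at least 50% covered, 60.1% for members by equal numbers, 68.3% for those of at least 500 bp, and 15.6% to 58.6% without 1 replicate. The share with H3K27ac (13.3%) was 21.1% in either control list, 25.8% in any of 4 lists, 7.22% with at least 50% covered, 19.4% for members of at least 500 bp, 8.16% for those 250 to 750 bp wide, and 7.19% to 18.6% without 1 replicate. Promoters made up 75.8% at 1 kb, 87.8% at 5 kb and 78.1% to 82.4% without 1 replicate, beside 83.1%. FLAG was at 10.8% in at least 1 of 3 lists, beside 1.94%, and 0 to 1.94% without 1 replicate.

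Signs turned for all 3 compared lengths. H3K27me3 (-0.508 kb) became 0.700 kb with equal numbers, 1.57 kb for members over 5 kb from control Suz12, 2.52 kb without the replicate 1 lists, 3.45 kb without those of replicate 3, and -25.0 to 27 kb without 1 replicate. H3K27ac (-0.0875 kb) became 0.05 kb with equal numbers and -2.54 to 2.36 kb without 1 replicate. Relative H3K27me3 (-0.23) became 0.11 without the replicate 1 lists and -0.80 to 0.64 without 1 replicate. Where values changed, the cause was not tested. The 250 to 750 bp band was chosen, and lists of 1 replicate number and chromosome 8 were set aside, after seeing the data.

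With the replicate number as a block, the differences were -0.508 kb (exact p = 1.00), -0.0875 kb (exact p = 1.00) and -0.23 (exact p = 0.750), where 3 pairs allow no p under 0.250 and 2 pairs none under 0.500. The block changed no call. For H3K27ac and Suz12, same-numbered replicates deviated together (r = 0.52 and 0.44), but with 2 pairs each, and labels that do not say what a number marks, whether they are pairs is not known.

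Lists without scores limit every value to called or not called. A call just under a threshold counts as absent, depth and signal behind a longer list cannot be told apart, and the exact permutation tests used here cannot pass the usual threshold with 2 or 3 replicates per condition.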
